A study of Mus musculus with 18 samples.

Results

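Blood vessel endothelial cells (BECs) of EO771 tumours were compared with BECs of the mammary fat pad, the tissue in which the tumours had grown. The members are the 6 libraries labelled as BECs, out of 18 libraries in the series: 3 from fat pad (BEC normal) and 3 from tumours (BEC tumour). The labels give the tissue and the cell type only. Per the methods of the study, the hosts were wild-type female C57BL/6 mice, EO771 mouse breast cancer cells had been injected into the fourth mammary fat pad, and cells that were CD45 negative and high for CD31 were sorted, those positive for PNAd being set apart as high endothelial cells (HECs). The study describes its endothelial RNA-seq as independent experiments without saying which mice or pools each library came from, so p-values measure the spread between these libraries. Per the methods, tumours were digested with more enzymes and for longer than fat pads, so digestion and tissue cannot be told apart. Of the other libraries, 6 from lymph node HECs share the fit, and 3 from cultured EO771 cells given vehicle served as a reference for tumour cell transcripts.

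The endothelium of a tumour is usually reached by VEGF, which acts through the receptor Kdr and selects tip cells, the leading cells of a sprout, while Dll4 signals through Notch to the neighbours and holds them back as stalk cells. Capillaries of fat take up fatty acids and are kept closed by the junction proteins Cdh5 and Cldn5. Macrophages and pericytes lie against the vessel wall and are hard to part from it, and a digested tumour also sheds epithelial tumour cells. In bulk RNA, more cells of a type and more RNA per cell cannot be told apart.

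Total deposited values were between 59.2 and 79.4 M per BEC library, and each library listed between 20516 and 22818 genes above 0. Low values lay in steps with a median of 3.84 units, so 1 unit is not 1 fragment, and a count of 0 was taken to allow up to 3 steps, 11.5 normalised counts per library. Levels below are DESeq2 normalised counts, which are not scaled to gene length and are compared only within a gene. Correlation of transformed values was between 0.990 and 0.993 within the groups and between 0.933 and 0.945 across them, and no pair of libraries held the same values.

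All 6 libraries carried endothelial transcripts. Pecam1, which encodes the sorted antigen CD31, was at 59954, 55640.2 and 58287 in BEC normal and 40818, 40945 and 41360.5 in BEC tumour. Cdh5, the cadherin of endothelial junctions, was at 66204, 59767 and 63152 in BEC normal and 61727, 61486 and 59225 in BEC tumour. The Cdh5 values of the groups overlapped, with a log2 fold change (BEC tumour minus BEC normal, ± SE) of -0.05 ± 0.05 and an adjusted p of 0.405. Glycam1 and Chst4, which mark high endothelium, were at 0 in each of the 6. The markers of fat capillaries were mixed in BEC normal. Cd36 was at 0, 4.71 and 8.13, and Meox2 and Timp4 were at 0 in all 3 libraries, whereas the mean was 4809 ± 345 (SD, n = 3) for Fabp4, 1862 ± 132 (SD, n = 3) for Pparg and 396 ± 52.3 (SD, n = 3) for Gpihbp1. Adiponectin (Adipoq) was also at 0 in all 3.

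The sex-linked transcripts went against a single sex of host. Eif2s3y, a Y-linked translation factor, had deposited values of 366, 267 and 333 in BEC normal and 0 in all 3 BEC tumour libraries. The Y-linked genes Kdm5d and Ddx3y were likewise at 126 or more in each BEC normal library and at 0 in each BEC tumour library. Xist, the RNA that silences an X chromosome, had deposited values of 17550, 7296 and 9568 in BEC normal and 44280, 43948 and 26335 in BEC tumour. BEC normal therefore held both Y-linked transcripts and Xist, although the methods name female mice only. Since all 3 BEC normal libraries were alike in this, no comparison can be run without them, and any difference in the source of the cells cannot be told apart from the difference in tissue.

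Of 18511 genes whose mean over the 12 endothelial libraries was 10 or more, 2300 were called higher in BEC tumour (12.4% of those tested) and 2004 lower (10.8%), at an adjusted p under 0.05 and a fold change over 2 (DESeq2). The shares of 12.4% and 10.8% are the background for the counts of each list below. The median log2 fold change over all genes tested was 0.00832. Scaling the libraries to the pan-endothelial list in place of all genes moved that median by 0.71 and gave 5800 higher and 1074 lower, so the balance of directions depends on the scaling. List medians relative to all genes moved by at most 0.09 between the scalings, except high endothelium (0.352). Of the genes called higher, 326 were at 0 in all BEC normal libraries and 715 had a BEC normal mean of at least 100. Of those called lower, 84 were at 0 in all BEC tumour libraries and 824 had a BEC normal mean of at least 1000.

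The pan-endothelial list kept most of its level. Of 22 genes, 2 were called higher and 8 lower, against 12.4% and 10.8% of all genes, with a median log2 fold change of -0.55. The summed level was between 5010 and 5160 CPM in BEC normal and between 4080 and 4130 CPM in BEC tumour. Within the list, single genes moved far. Cldn5, the claudin of tight endothelial junctions, fell from 15828, 19545 and 17939 in BEC normal to 17.6, 37.2 and 16.6 in BEC tumour. The groups were far apart, the log2 fold change was -9.54 ± 0.76 and the adjusted p 3.70e-35. In HEC normal its mean was 74.7. Kdr, the main VEGF receptor, fell from 26024, 22554 and 24696 to 5138, 4903 and 4486, a log2 fold change of -2.33 ± 0.08. Sox18, a transcription factor of vessel development, fell from 4487, 5486 and 4826 to 148, 191 and 172, a change of -4.85 ± 0.20. Mmrn2, a matrix glycoprotein of the vessel wall, fell from 5226, 5179 and 5674 to 125, 220.0 and 196, a change of -4.89 ± 0.21. The genes called higher, named after their values were seen, were Tal1 (1.68 ± 0.08) and Sox7 (1.09 ± 0.08), both transcription factors of the endothelial and blood lineage.

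**Figure D1:**
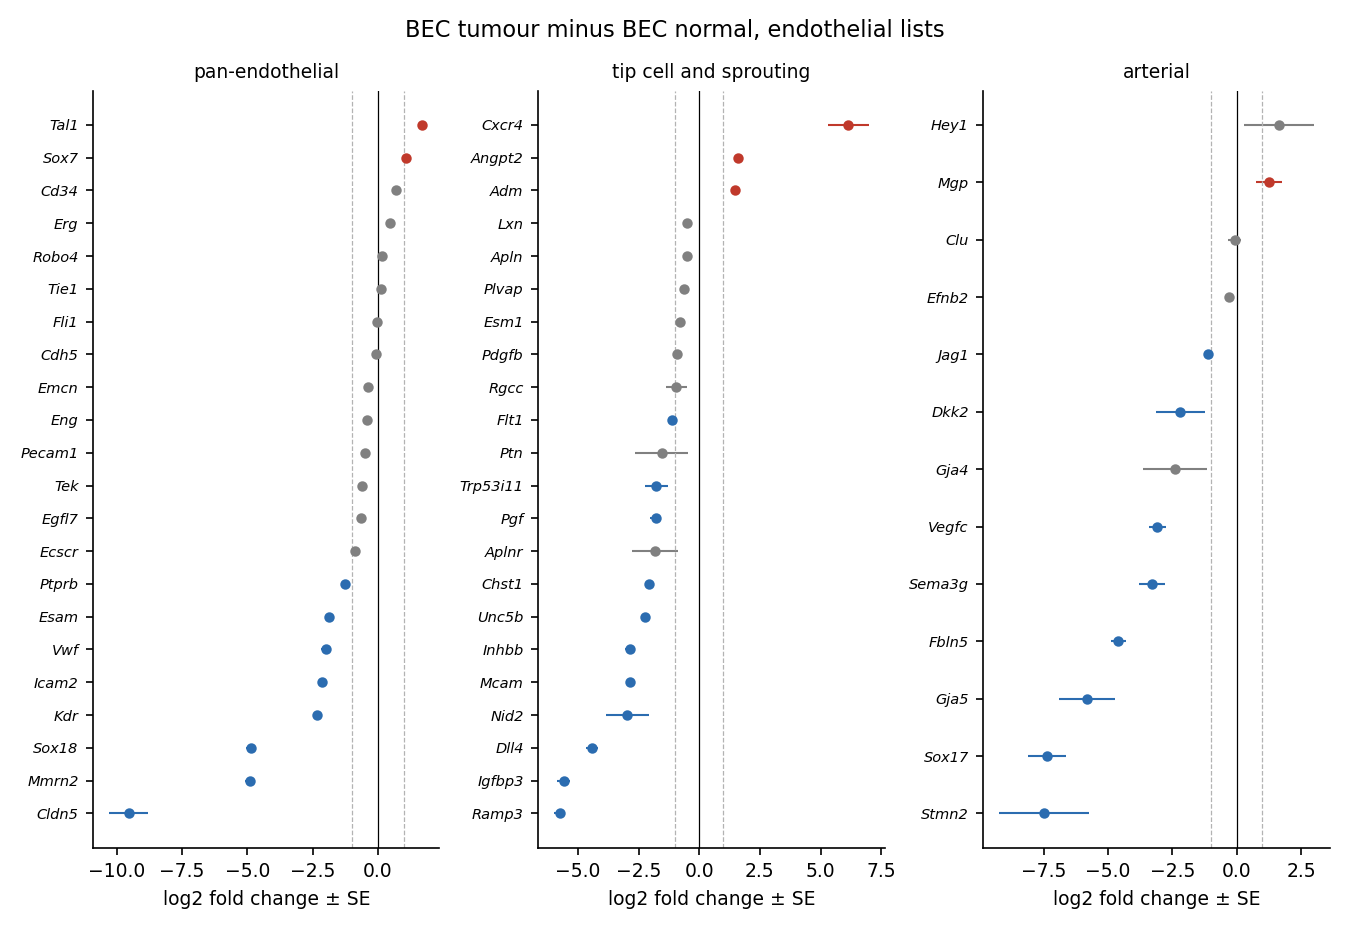
Log2 fold change of BEC tumour minus BEC normal (x axis, ± SE) for each tested gene (y axis) of the pan-endothelial, tip cell and arterial lists, with 3 libraries a group. Red marks genes called higher, blue lower and grey neither, and dashed lines mark a 2-fold change. Cldn5 lies far to the left of its list, and 11 tip cell genes are blue against 3 red.

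Genes of tip cells and sprouting were mostly lower in BEC tumour. Of 22 tested, 3 were called higher and 11 lower, with a median log2 fold change of -1.66, and in 19 every BEC tumour library lay below every BEC normal library. Dll4, the Notch ligand of tip cells, fell from 1049, 1223 and 1114 to 31.5, 76.1 and 51.4 (-4.41 ± 0.24, adjusted p 2.41e-73). Ramp3, a partner of the adrenomedullin receptor, fell from 2354, 2735 and 2489 to 39.9, 71.1 and 28.8 (-5.76 ± 0.23). Igfbp3, a secreted binder of insulin-like growth factors, fell from 6839.7, 8125 and 7489 to 129, 176 and 160.4 (-5.59 ± 0.27). Angpt2, the antagonist ligand of the receptor Tek, ran the other way and rose from 678, 565 and 638 to 1883, 2005 and 1803 (1.59 ± 0.08, adjusted p 3.74e-79). The other higher genes, Adm (1.48 ± 0.11) and Cxcr4 (6.14 ± 0.85), encode adrenomedullin and a chemokine receptor. Cxcr4 was at 0, 14.1 and 0 in BEC normal and 335, 426 and 184 in BEC tumour, and it is also expressed by leukocytes. Apln, the ligand apelin, had means of 45580.5 ± 1129 (SD, n = 3) and 31874 ± 674 (SD, n = 3) and a log2 fold change of -0.52 ± 0.04, which misses the fold threshold.

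Genes of arteries and of Notch signalling were lower as well. Of 13 arterial genes tested, 1 was called higher and 8 lower, with a median log2 fold change of -2.39. Sox17, a transcription factor that sets arterial identity, fell from 779, 426 and 699 to 8.35, 3.38 and 0 (adjusted p 4.19e-22). Gja5, the connexin of arterial endothelium, fell from a mean of 114 ± 13.1 (SD, n = 3) to 0, 5.92 and 0 (adjusted p 4.52e-07). Stmn2 fell from 1434, 1371 and 1332 to 0, 16.1 and 6.97 (-7.49 ± 1.74), and Fbln5, a protein of elastic fibres, from 5382, 6113 and 5619 to 188, 314 and 205 (-4.60 ± 0.29). Efnb2, the arterial ephrin, stayed close, at 7222, 6723 and 6804 and 5614, 5775 and 5655 (-0.28 ± 0.06). The gene called higher was Mgp (1.25 ± 0.52, adjusted p 0.0319), an inhibitor of calcification whose call was lost with edgeR (adjusted p 0.0626). Of 13 Notch pathway genes, 2 were called higher and 8 lower, with a median of -1.45. Log2 fold changes in the list ran from -4.41 to 5.44, and the 2 higher genes are not named here. Without BEC tumour replicate 1, neither was called higher. The receptor Notch1 was at 9939, 8461 and 9034 and 10142, 11153 and 9653 (0.17 ± 0.08), and the groups overlapped. The receptor Notch4 fell from 10074, 10579 and 10251 to 3055, 3273 and 2972 (-1.73 ± 0.08). The ligand Jag2 (-2.65 ± 0.30) and the target gene Nrarp (-2.00 ± 0.10) fell.

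VEGF receptors and ligands moved in both directions. Of 13 genes, 2 were called higher (15.4%) and 5 lower (38.5%), against 12.4% and 10.8% of all genes. Under the pan-endothelial scaling 4 were higher and 4 lower. Flt1, a decoy receptor for VEGF, fell from 7616, 6740.4 and 6986 to 3471, 3236 and 3204 (-1.11 ± 0.09). Flt4, the receptor for VEGF-C, was higher without reaching the fold threshold, at 5675, 5743 and 5829 and 8648, 9263 and 8657 (0.62 ± 0.05). Of the ligands, Vegfb rose from 1837, 2211 and 1966 to 5549, 5993 and 6039.9 (1.55 ± 0.08, adjusted p 3.20e-77), and Angpt2, given above, was the other gene called higher. Vegfa fell from 3407, 3503 and 3504 to 1020.3, 1017 and 1108 (-1.73 ± 0.08) and Pgf, placental growth factor, fell from 2369, 2137 and 2367 to 593, 712 and 668 (-1.80 ± 0.21).

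Genes of fat capillaries and lipid uptake gave 2 higher and 4 lower of 14 tested (14.3% and 28.6%, against 12.4% and 10.8% of all genes). Cd36, a fatty acid transporter, was at 0, 4.71 and 8.13 in BEC normal and 3434, 2467 and 1583 in BEC tumour (adjusted p 5.61e-56). Lpl, lipoprotein lipase, rose from 1829.9, 1422 and 1656 to 7085, 5145 and 2936 (1.63 ± 0.32). Both genes were highest in BEC tumour replicate 1 and lowest in replicate 3, the order of the macrophage genes below, and macrophages express both. The part of macrophage RNA in these rises was not tested. No other gene of the list was called higher. Gpihbp1, which holds lipoprotein lipase on the capillary wall, fell from 428, 424 and 335 to 34.3, 72.8 and 15.7 (-3.27 ± 0.51). Pparg, a regulator of lipid uptake, fell from 1956, 1711 and 1919 to 296, 306 and 290.3 (-2.65 ± 0.19). Fabp4, a fatty acid carrier of capillaries, was at 4415, 4953 and 5059 and 3978, 4247 and 4295 (-0.20 ± 0.08).

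Among matrix, junction and adhesion genes the balance of directions depended on the scaling. Under the pan-endothelial scaling 2 basement membrane genes were higher and 2 lower, 3 junction genes higher and 3 lower, 3 venous and adhesion genes higher and 1 lower, and 3 chemokine genes higher and 2 lower. In the scaling to all genes, of 16 basement membrane genes, none was called higher and 7 lower with DESeq2. edgeR called 0 higher, and 3 had a positive change at an unadjusted p under 0.05. Col18a1, the collagen from which endostatin is cut, fell from 35925, 37164 and 36785 to 1514, 2275 and 1822 (-4.29 ± 0.20). Col4a1, a main chain of basement membrane collagen, fell from 175854, 177731 and 176546 to 88940.5, 75756 and 69999 (-1.18 ± 0.12), and its partner Col4a2 had a log2 fold change of -0.90 ± 0.06. Of 14 junction genes, 1 was called higher (7.14%) and 3 lower (21.4%), against 12.4% and 10.8% of all genes. Jam2 fell from 4230.3, 3621 and 3858 to 542, 673 and 673 (-2.63 ± 0.16), and Esam from 19600.2, 20302 and 19589.5 to 5487, 4943 and 5867 (-1.87 ± 0.06), both being adhesion molecules of endothelial contacts. Cgn, the tight junction adaptor cingulin, rose from 45, 24.7 and 52.8 to 749, 858 and 895 (4.34 ± 0.24). Epithelium also expresses Cgn, its HEC normal mean was 648, and the part of epithelial RNA in its rise was not tested.

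Among 12 venous and adhesion genes tested, 2 were called higher (16.7%) and 3 lower (25.0%), against 12.4% and 10.8% of all genes. Icam1, an adhesion molecule for leukocytes, rose from 350.1, 321 and 369.8 to 1554, 1409 and 1307 (2.03 ± 0.14). Selp and Sele, the selectins on which leukocytes roll, had log2 fold changes of -0.49 ± 0.04 and -0.33 ± 0.09. Without BEC normal replicate 1 the number lower was 5, and without BEC normal replicate 2 the number higher was 1. Podxl, a sialomucin of the luminal surface (-1.29 ± 0.04), and Tmem252 (-5.15 ± 0.33) fell. Of 11 chemokine genes, 2 were called higher (18.2%) and 4 lower (36.4%). Ackr3, a scavenging receptor for Cxcl12, fell from 10800.1, 11134 and 11227 to 243, 311 and 258 (-5.35 ± 0.13). Cx3cl1, a membrane-bound chemokine, fell from 6069.8, 6519 and 6628 to 386, 533 and 397 (-3.87 ± 0.16). Ccl5, which attracts T cells and monocytes, rose from 2445, 2556 and 2896 to 6356, 7182 and 7964 (1.45 ± 0.10). Ccl2 and Cxcl1, which attract monocytes and neutrophils, had log2 fold changes of -0.47 ± 0.08 and -0.74 ± 0.07. Of 8 genes that respond to flow, 1 was called higher, Edn1 (1.96 ± 0.24), and 1 lower, Cyp1b1 (-2.21 ± 0.22). Each is 12.5% of the list, near the 12.4% and 10.8% of all genes. The flow-induced factors Klf2 (-0.38 ± 0.08) and Klf4 (-0.22 ± 0.06) and the nitric oxide synthase Nos3 (-0.21 ± 0.05) changed by less than 2-fold.

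Genes induced by interferon were mostly lower in the scaling to all genes. Of 34 tested, 4 were called higher (11.8%) and 18 lower (52.9%), against 12.4% and 10.8% of all genes. The share called higher was thus near that of all genes. The median log2 fold change was -1.13. In 26 genes every BEC tumour library lay below every BEC normal library, against 5624 of 18511 genes. The summed level was between 4000 and 4280 CPM in BEC normal and between 2420 and 2570 CPM in BEC tumour. With the pan-endothelial scaling 11 were lower. Usp18, which restrains the interferon receptor, fell from 16164, 19074 and 17835 to 3049, 3404 and 3786 (-2.37 ± 0.09, adjusted p 2.10e-143). Oas2, a sensor of double-stranded RNA, fell from 1864, 2577 and 2047 to 302, 371 and 377 (-2.63 ± 0.14). The GTPases Gbp4 (-2.40 ± 0.14) and Mx1 (-2.28 ± 0.45) fell too. The 4 higher genes, named after their values were seen, were Rsad2, Oasl1, Ifit2 and Gbp5. Rsad2, the antiviral enzyme viperin, rose from 4041, 3615 and 3915 to 19661, 17134 and 17808 (2.24 ± 0.07, adjusted p 6.40e-229). Ifit2, which binds viral RNA, rose from 2072, 1702 and 1810.2 to 6556, 5885 and 6331 (1.75 ± 0.09). Its neighbours Ifit1 (0.45 ± 0.08) and Ifit3 (-0.64 ± 0.06) moved in opposite directions by less than 2-fold. Oasl1 (1.76 ± 0.50) and Gbp5 (1.56 ± 0.16) rose as well.

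The promoters of both directions carry the letters of the interferon-stimulated response element, the site at which the ISGF3 factor binds. The motif, 2 copies of GAAA with any 2 bases between them, was searched on both strands of the 300 bases from 250 before to 50 after each start site in the RefSeq promoter table (GRCm38.p6). It was found in 3.44% of 32851 promoters. Counted by gene, as for the list, it was found for 3.99% of 27025 symbols. Of the 34 interferon-induced genes, 25 matched the table, and 17 of these held it: 2 of 4 genes called higher, 7 of 10 called lower and 8 of 11 called neither. The windows below, chosen after the values were seen, set the higher genes with a match, Rsad2 and Gbp5, beside the lower genes Isg15 (-1.95 ± 0.13) and Bst2 (-1.33 ± 0.10). Capitals mark the match, read 5′ to 3′ on the strand of the gene, and it stands as its reverse complement in Rsad2 and Gbp5. In Isg15 and Bst2 further matches overlap the marked one.
Rsad2, chr12:26456538-26456597, minus strand: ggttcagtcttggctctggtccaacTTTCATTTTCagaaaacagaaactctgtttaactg
Gbp5, chr3:142496744-142496803, plus strand: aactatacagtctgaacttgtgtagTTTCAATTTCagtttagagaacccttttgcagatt
Isg15, chr4:156200856-156200915, minus strand: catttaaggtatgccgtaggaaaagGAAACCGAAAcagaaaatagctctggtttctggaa
Bst2, chr8:71537562-71537621, minus strand: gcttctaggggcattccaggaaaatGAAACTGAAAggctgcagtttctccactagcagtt
A match is a description of letters and not a measured binding site. Genes of opposite direction share it here.

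**Figure D2:**
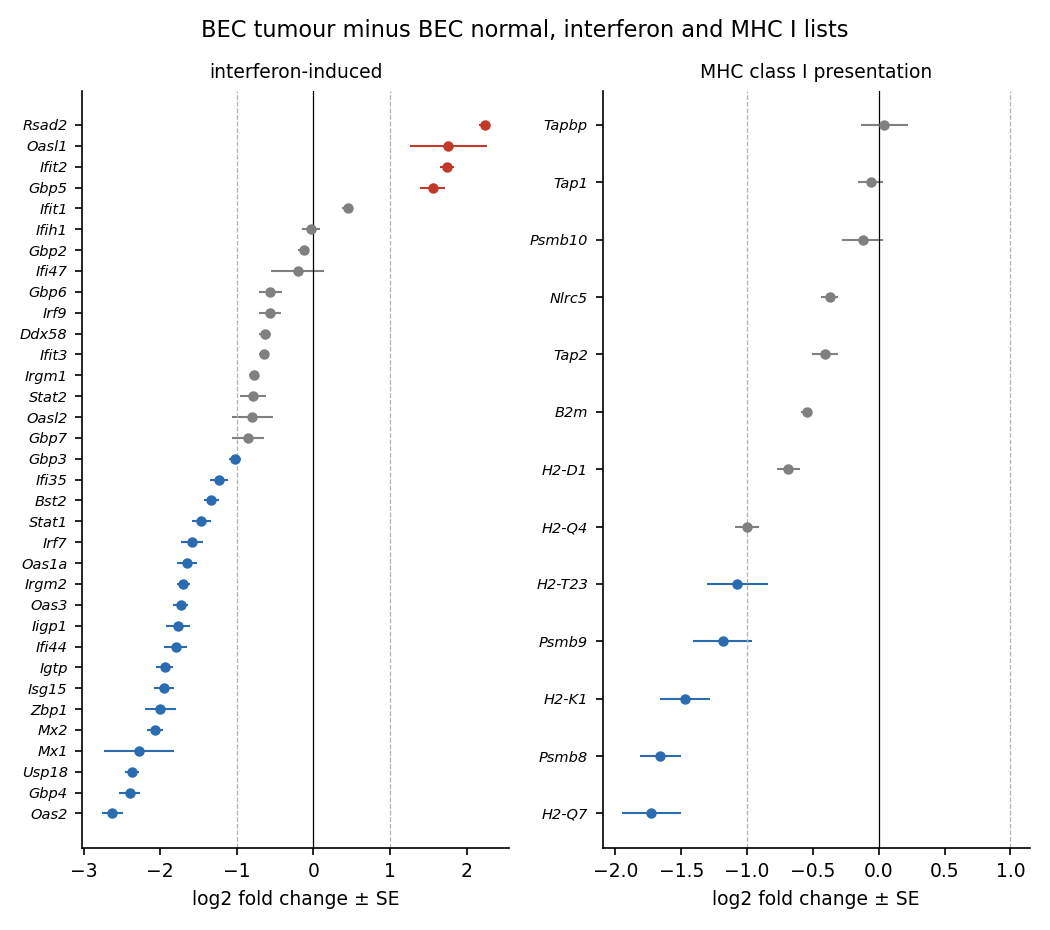
Log2 fold change of BEC tumour minus BEC normal (x axis, ± SE) for each tested gene (y axis) of the interferon and MHC class I lists, with 3 libraries a group and the colours of the endothelial plot. The interferon list holds 4 genes called higher and 18 lower, while the class I list holds 5 lower and no red point.

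Antigen presentation genes went in opposite directions by class. Of 13 MHC class I genes, none was called higher and 5 lower with DESeq2. edgeR called 0 higher, and 0 had a positive change at an unadjusted p under 0.05. H2-K1 fell from 21854, 29515 and 26633 to 7041, 8377 and 12701 (-1.47 ± 0.19). B2m, the light chain, was at 79214, 79408 and 79992 and 52865, 55289.7 and 55098 (-0.55 ± 0.04), and H2-D1 changed by -0.69 ± 0.09. The immunoproteasome subunits Psmb8 (-1.66 ± 0.15) and Psmb9 (-1.18 ± 0.22) fell. Under the pan-endothelial scaling 1 class I gene stayed lower. Class I genes are near-identical copies, and reads may be split between them. Of 6 MHC class II genes tested, 4 were called higher and none lower with DESeq2. edgeR called 0 lower, and 0 had a negative change at an unadjusted p under 0.05. Cd74, the invariant chain, rose from 157, 97.7 and 109 to 934, 933 and 939 (2.95 ± 0.47), and H2-Aa from 18.5, 0 and 9.14 to 421, 318 and 380.1 (5.31 ± 0.81). Macrophages and B cells also express class II genes, and their part in this rise was not tested.

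Most cholesterol genes had positive fold changes, and fewer passed the test. Of 21 genes of synthesis and uptake, 6 were called higher, against 12.4% of all genes, and none lower with DESeq2, and in 20 every BEC tumour library lay above every BEC normal library, against 5386 of 18511 genes. The median log2 fold change was 0.85. edgeR called 0 lower, and 0 had a negative change at an unadjusted p under 0.05. Under the pan-endothelial scaling 18 were higher, and against a 2-fold change 3 were. Insig1, which holds the sterol sensor in the endoplasmic reticulum, rose from 2309.6, 2402 and 2329 to 7393, 7478 and 6969 (1.63 ± 0.06, adjusted p 9.75e-189). Hmgcs1 (1.58 ± 0.27) and Cyp51 (1.34 ± 0.08), enzymes of synthesis, rose. Msmo1, an enzyme of sterol synthesis named after its values were seen, rose from 3384, 3275 and 3481 to 8248, 7656 and 5624 (1.09 ± 0.13), and without BEC tumour replicate 1 its change was 0.98, under the fold threshold. The summed level was between 1000 and 1130 CPM in BEC normal, between 2240 and 2310 CPM in BEC tumour and between 535 and 604 CPM in the HECs, so BEC tumour stood above all other endothelial groups.

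Proliferation genes were present in both groups. The list summed to between 5510 and 5710 CPM in BEC normal, between 7440 and 7650 CPM in BEC tumour and between 6110 and 6610 CPM in HECs. Of 30 cell cycle genes, 4 were called higher (13.3%, near the 12.4% of all genes) and none lower with DESeq2. edgeR called 0 lower, and 20 had a positive and 5 a negative change at an unadjusted p under 0.05. In 17 of the 30 every BEC tumour library lay above every BEC normal library and in 4 below, against 5386 and 5624 of 18511 genes. With the pan-endothelial scaling 17 were higher. Top2a, a topoisomerase of dividing cells, was at 34874, 24062 and 28596 in BEC normal and 38991, 34732 and 31066 in BEC tumour (0.26 ± 0.12, adjusted p 0.0672). Mki67, the Ki-67 antigen, rose from 9410.3, 4015 and 5137 to 22384, 18313 and 8112 (1.39 ± 0.38), with the widest spread in BEC tumour between replicates 1 and 3. Cdc20, an activator of mitotic exit, rose from 11654, 13359.6 and 12836 to 28533, 29678 and 31391 (1.24 ± 0.07), and Cenpf (1.44 ± 0.29) and Cenpe (1.38 ± 0.30) of the kinetochore rose as well. Cdk1 changed by -0.22 ± 0.09.

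Stress and energy genes were called in both directions. Scaled to the pan-endothelial list, 2 glycolysis genes were higher and 1 lower, 3 hypoxia genes higher and 1 lower, 9 NRF2 targets higher and 1 lower, and 5 genes of the unfolded protein response higher and none lower. Of 17 glycolysis genes, none was called higher and 3 lower with DESeq2. edgeR called 0 higher, and 3 had a positive change at an unadjusted p under 0.05. Ldha, lactate dehydrogenase, fell from 64080.3, 79578 and 74065 to 27485, 31180.2 and 32379 (-1.26 ± 0.09), and Pfkm (-1.65 ± 0.10) and the lactate exporter Slc16a3 (-3.00 ± 0.18) fell too. The glucose transporter Slc2a1 changed by 0.50 ± 0.10. Of 14 hypoxia genes, 3 were called higher (21.4%), among them Car9 (2.34 ± 0.18), and 5 lower (35.7%), among them Bnip3 (-1.18 ± 0.16). Of 15 NRF2 targets, 3 rose and 1 fell. Hmox1, which degrades haem, rose from 21068, 22178 and 21601 to 87880.3, 82031 and 70678 (1.89 ± 0.08), and the glutathione transferases Gsta1 (2.97 ± 0.19) and Gsta4 (-3.34 ± 0.20) moved apart. Of 24 immediate early and heat shock genes, 2 rose (8.33%, under the 12.4% of all genes), Jun (1.51 ± 0.04) and Atf3 (1.65 ± 0.09). A further 8 fell (33.3%, against 10.8%), among them Egr1 (-1.41 ± 0.13). Under the pan-endothelial scaling 5 of the 24 were higher and none of the 8 stayed lower. Fos, which dissociation of tissue often raises, was at 377, 374 and 317 and 857, 715 and 510.0 (0.96 ± 0.18) and missed the fold threshold. It passed under the total-value (1.006) and pan-endothelial (1.659) scalings and in the fit on the 6 BEC libraries (1.004). It also passed without BEC normal replicate 1 (1.003) or BEC tumour replicate 3 (1.145), and in no other alternative with that threshold. The part of digestion in the rises of Fos, Jun and Atf3 was not tested. Of 14 genes of the unfolded protein response, 1 (7.14%) rose, Chac1 (2.10 ± 0.10), against 12.4% of all genes. The chaperone Hspa5 changed by -0.08 ± 0.15.

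Macrophage and myeloid genes rose in nearly every member. Of 24 genes, 23 were called higher, against 12.4% of all genes. Members at or near 0 in BEC normal and HEC normal, such as C1qa, passed the filter on the mean mainly through BEC tumour. Their direction was close to fixed beforehand, so this count is a description. The median log2 fold change was 6.26, or 6.17 with genes at 0 in a group set at their bound. C1qa, a chain of complement C1q, was at 0 in all 3 BEC normal libraries and at 6887, 6231 and 3847 in BEC tumour, at least 491-fold higher against the limit of 11.5. C1qc was also at 0 in BEC normal and at 9514, 8296 and 4951 in BEC tumour, at least 659-fold higher. Ptprc, which encodes the CD45 antigen that the sort gated out, was at 24.7, 8.24 and 15.2 and 855, 728 and 401 (5.35 ± 0.54). Csf1r, the receptor that sustains macrophages, was at 301, 180.0 and 197 and 3991, 3423 and 1865 (3.77 ± 0.36), and Adgre1, the F4/80 antigen, at 3.53, 0 and 4.06 and 2515, 1849 and 1005. In these genes BEC tumour replicate 1 was the highest and replicate 3 the lowest, while the groups did not overlap. Cx3cr1 was the gene not called, at 37, 14.1 and 26.4 and 39, 42.3 and 23.5. The list summed to between 124 and 149 CPM in BEC normal, to 2830, 2650 and 1950 CPM in BEC tumour and to between 360 and 514 CPM in HECs. Cd68, a lysosomal protein, was at 7967, 7506 and 7070.3 in BEC normal, 60812, 62056 and 56302 in BEC tumour and a mean of 33269 in HEC normal, where C1qa had a mean of 1.27. Without BEC tumour replicate 1, 21 of the 24 genes were called.

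**Figure D3:**
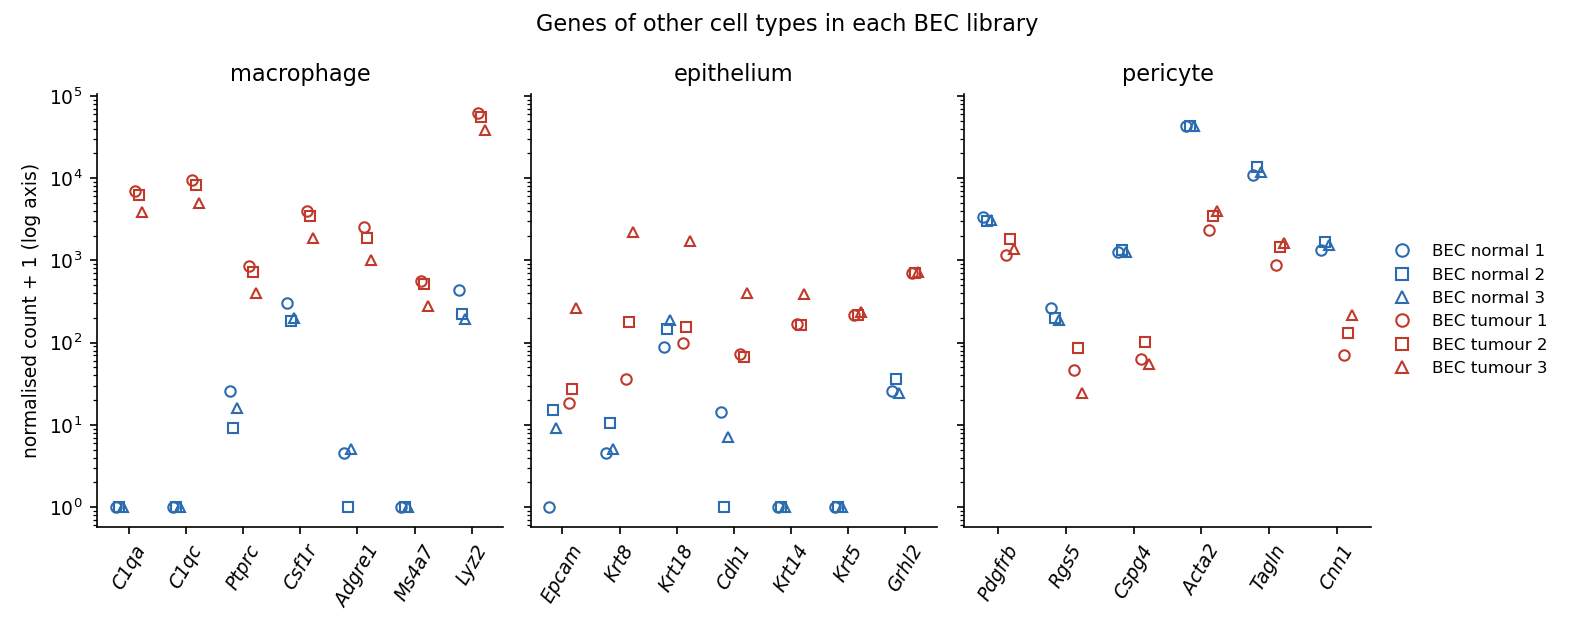
Normalised count + 1 (y axis, log scale) of macrophage, epithelial and pericyte genes (x axis), each symbol being 1 library and blue marking BEC normal and red BEC tumour. Macrophage genes are highest in BEC tumour replicate 1 and lowest in replicate 3, while Krt8, Krt18 and Epcam are highest in replicate 3, and the pericyte genes are lower in BEC tumour.

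Pericyte and smooth muscle genes were mostly lower. Of 11 tested, none was called higher and 6 lower with DESeq2. In 7 of the 11 every BEC tumour library lay below every BEC normal library and in 2 above, against 5624 and 5386 of 18511 genes. edgeR called 0 higher, and 1 had a positive change at an unadjusted p under 0.05. Under the pan-endothelial and the TMM scaling 2 were called higher. Acta2, smooth muscle actin, fell from 42470.4, 43370.3 and 43243 to 2334, 3437 and 4039 (-3.72 ± 0.19). Tagln fell from 10818, 13547 and 12015 to 882, 1452 and 1618 (-3.20 ± 0.30) as did Cnn1 (-3.45 ± 0.36), both being parts of the contractile apparatus. Cspg4, the NG2 proteoglycan of pericytes, fell from 1280.5, 1353 and 1255 to 62.1, 101 and 54.1 (-4.16 ± 0.53). Pdgfrb, the receptor that recruits pericytes, fell from 3399.6, 2988 and 3107 to 1154, 1809 and 1383 (-1.13 ± 0.17). Rgs5 was at 262, 198 and 188 and 45.5, 84.6 and 23.5 (-2.08 ± 0.82, adjusted p 0.0236), and its call was lost with edgeR (adjusted p 0.0572). Kcnj8 and Abcc9, which define pericytes, were at 0 in all BEC normal libraries, and Higd1b was at 4 or less in each. A summed level is weighted towards the genes with the highest values, which were Acta2 and Tagln among those given here. The list summed to between 895 and 932 CPM in BEC normal and between 84.1 and 129 CPM in BEC tumour. The lower endothelial genes were measured beside this fall, and its part in them was not tested.

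Fibroblast genes split, with 5 of 13 higher (38.5%) and 6 lower (46.2%). Log2 fold changes in the list ran from -3.94 to 7.99, and the 5 higher genes are not named here. The number higher was 3 without any 1 of BEC normal replicates 2 and 3 and BEC tumour replicates 1 and 2. Col1a1, the main collagen of fibroblasts, fell from 7971, 9057 and 8280.1 to 724, 744 and 180.5 (-3.94 ± 0.61), while the defining genes Lum and Dpt were at 0 in all BEC normal libraries. The list summed to between 373 and 382 CPM in BEC normal and between 51.7 and 102 CPM in BEC tumour. Of 7 genes of lymphatic endothelium, 3 were called higher (42.9%) and 2 lower (28.6%). Log2 fold changes in that list ran from -2.05 to 7.65, and the 3 higher genes are not named here. Without BEC tumour replicate 2, 1 was higher. Lyve1, a hyaluronan receptor, fell from 14928, 13658 and 13531 to 3676, 3337 and 3161 (-2.05 ± 0.11), and Prox1, which defines lymphatics, was at 0, 18.8 and 4.06 and 13.9, 41.5 and 22.7.

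Some epithelial genes were higher mainly in a single library and others evenly. Of 12 tested, 7 were called higher and none lower with DESeq2, and 3 had no adjusted p because of an outlying value. edgeR called 0 lower, and 0 of the 9 with an adjusted p had a negative change at an unadjusted p under 0.05. In 1 gene of the list every BEC tumour library lay below every BEC normal library. With a replicate block on the 6 BEC libraries, 9 were called higher and 2 lower. Without BEC tumour replicate 3, 7 were again called higher and the median log2 fold change was 2.79 in place of 4.32. Krt8, a keratin of luminal epithelium and of EO771 cells, was at 3.53, 9.41 and 4.06 in BEC normal and 35.2, 179 and 2235 in BEC tumour, most of it in replicate 3. Krt18, its partner, was at 86.4, 145 and 187 and 97.4, 156 and 1704. Without BEC tumour replicate 3 the log2 fold change of Krt18 turned from 2.23 ± 0.81 to -0.13. Epcam, an epithelial adhesion molecule, was at 0, 14.1 and 8.13 and 17.6, 26.2 and 261 (adjusted p 0.0706). Krt19, a keratin of simple epithelium, rose from 143, 208 and 277 to 736, 790.1 and 1078 (2.05 ± 0.22), and its HEC normal mean was 1865. Krt5, a keratin of basal cells, was also even, being at 0 in BEC normal and at 215, 213 and 234 in the BEC tumour libraries, at least 19.2-fold higher. The epithelial list summed to 34.0, 37.6 and 133 CPM in BEC tumour, between 5.71 and 8.48 CPM in BEC normal and between 40.5 and 48.9 CPM in HECs.

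Cultured EO771 cells gave a scale for tumour cell transcripts, although their table was normalised separately. Krt8 stood at 0.0572%, 0.291% and 3.61% of its mean EO771 vehicle CPM in BEC tumour replicates 1, 2 and 3, and Krt18 at 0.0689%, 0.11% and 1.2%. Epcam stood at 1.42%, 2.11% and 20.9% and Krt19 at 2.49%, 2.67% and 3.64%, and Krt19 was also present in BEC normal. Over 8 genes with at least 50 CPM in EO771 and at most 3 units in each BEC normal library, the ratio of BEC tumour to EO771 CPM had a median of 0.252% and ran from 0 to 1.57%. The 8 genes include Krt14, Dmkn and Mal2.

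Genes of B cells, skeletal muscle and neutrophils had low summed levels in BEC tumour, and most T and NK cell genes fell under the filter. All 5 B cell genes tested were called higher, against 12.4% of all genes. Their summed levels were between 6.39 and 9.48 CPM, against 0.175 to 0.692 CPM in BEC normal and 0.297 to 0.925 CPM in HECs. Genes this low elsewhere passed the filter on the mean mainly through BEC tumour, so their direction was close to fixed beforehand. The median log2 fold change was 7.62, or 2.19 with genes at 0 in a group set at their bound. All 5 skeletal muscle genes were called higher (3 without BEC tumour replicate 3), with sums between 15.0 and 21.7 CPM against 1.25 to 2.80 CPM. Of 5 neutrophil genes tested, 4 were called higher. Of 11 T and NK cell genes, 9 fell under the filter. Cd4 was the gene called higher, at 3.53, 0 and 0 in BEC normal and 2691, 2388 and 1412 in BEC tumour. Cd3e was at 0 in BEC normal and at 0, 0 and 13.1 in BEC tumour. Cd4 was highest in BEC tumour replicate 1 and lowest in replicate 3, the order of the macrophage genes. The cell source of its rise was not tested. The genes Hbb-bs and Hba-a1 of red cells and Gp9 of platelets were called higher, of 7 tested.

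**Figure D4:**
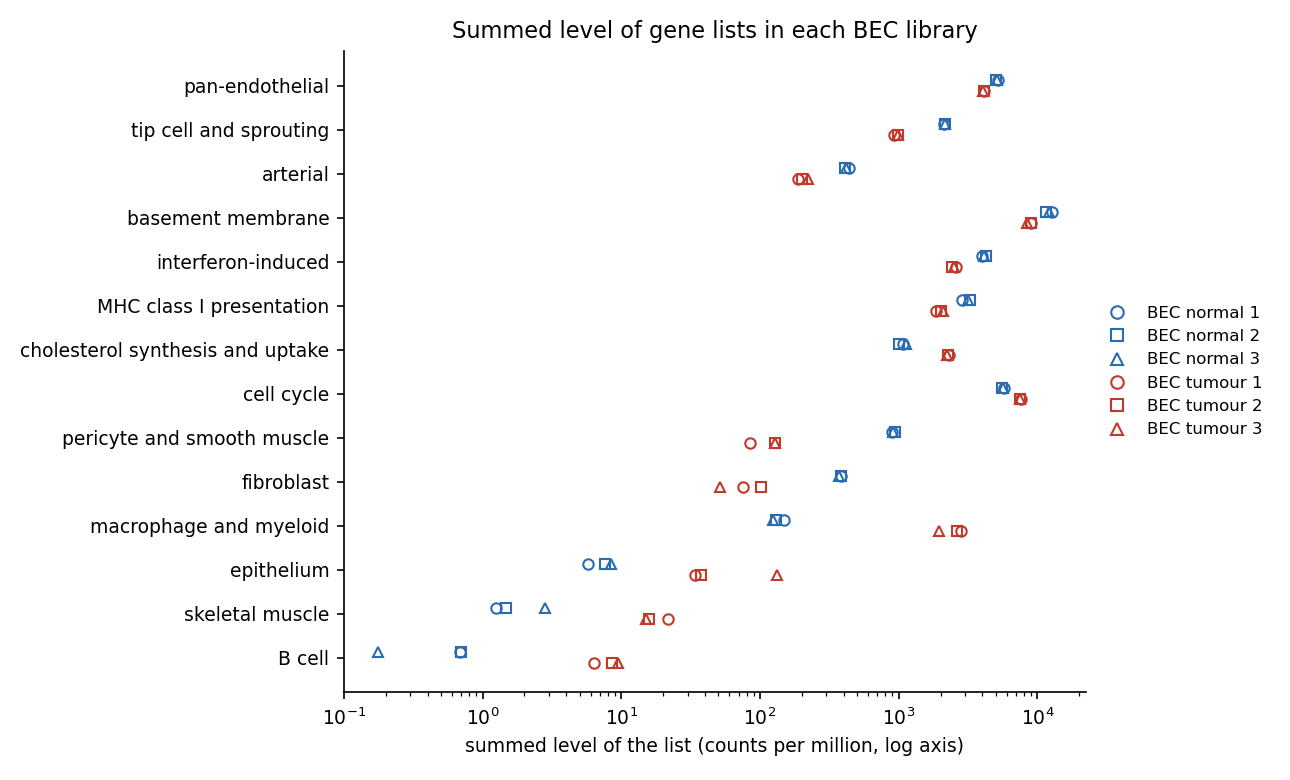
Summed level of each gene list (y axis) in CPM (x axis, log scale), with each symbol 1 library, blue for BEC normal and red for BEC tumour. The pericyte and smooth muscle list is lower in BEC tumour by a wide gap, the macrophage list higher, and BEC tumour replicate 3 stands apart in the epithelial list.

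The higher genes were then sorted by the ratio of BEC tumour replicate 1 to replicate 3 and by the level in HEC normal, where C1qa was near 0 and the macrophage list summed to between 492 and 514 CPM. This division was set after the values were seen, and the fit used these libraries. Of the 2300 higher genes, 564 had a BEC tumour mean of at least 1000. In 456 of these (80.9%), replicates 1 and 3 lay within 1.5-fold of each other, against 94.1% of all genes at this level. In 388 of the 456 (85.1%) the HEC normal mean was at least 50% of the BEC tumour mean, against 95.7% of the even genes among all. In 98 genes (17.4%) replicate 1 was more than 1.5-fold above replicate 3, against 3.98% of all genes at this level. In 47 of the 98 (48.0%) HEC normal was under 10% of BEC tumour, against 14.9% of such uneven genes among all. In 10 genes replicate 3 was more than 1.5-fold above replicate 1. The shares of 80.9% and 85.1% lay below those of all genes, and the shares of 17.4% and 48.0% lay above them. The uneven genes that were low in HECs included most of these macrophage genes. Of the 824 lower genes with a BEC normal mean of at least 1000, HEC normal was under 50% of BEC normal in 599 (72.7%), against 1158 of all 8931 genes at this level. BEC normal thus differed from HEC normal as well as from BEC tumour in most of the lower genes. The comparison groups share the BEC normal libraries, so these shares are descriptions.

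**Figure D5:**
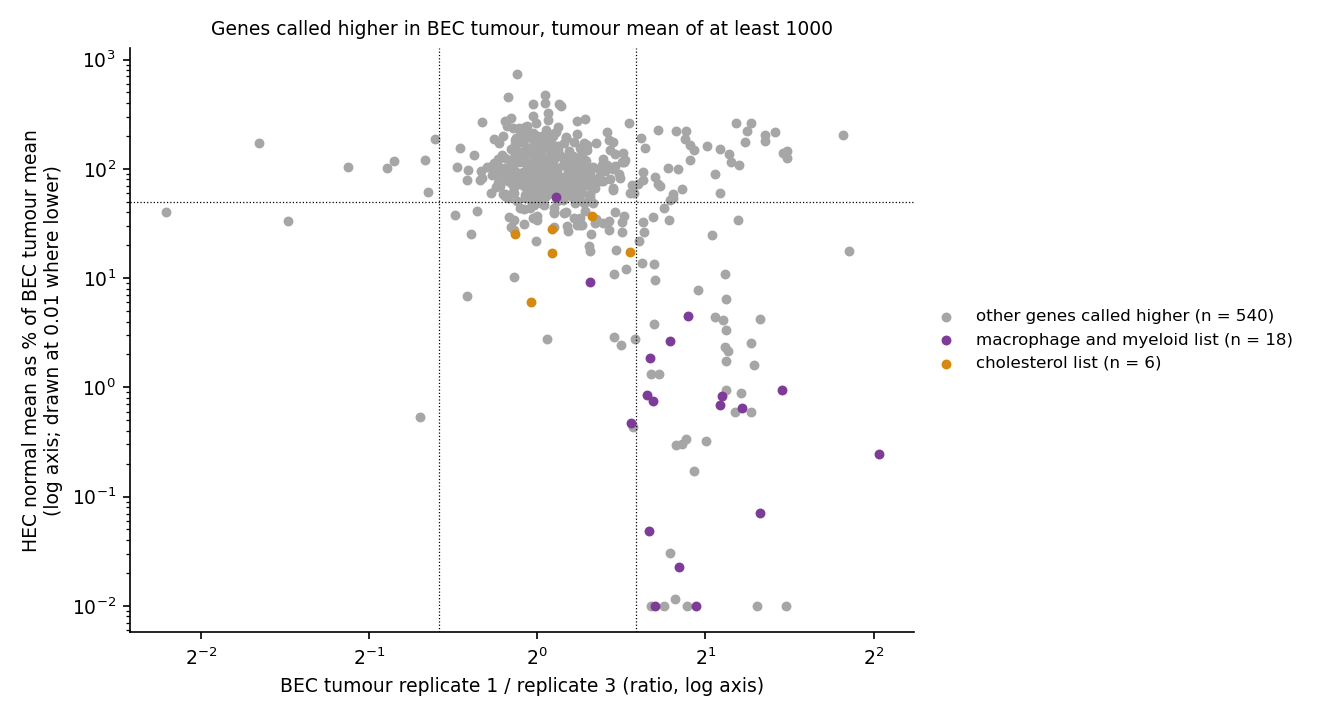
Ratio of BEC tumour replicate 1 to replicate 3 (x axis, log scale) against the HEC normal mean as a percentage of the BEC tumour mean (y axis, log scale) for the 564 genes called higher with a BEC tumour mean of at least 1000. Dotted lines mark a ratio of 1.5 either way and 50%. Cholesterol genes lie within or at the dotted ratio lines with HEC normal below 50%, and most macrophage genes lie to the lower right.

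Outside the lists, the higher genes with the largest Wald statistics were even across libraries and present in HECs. That statistic divides the fold change by its SE, so ranking by it favours even genes and their evenness is not a result. Lncenc1, a long non-coding RNA, rose from 92.6, 80 and 80.3 to 11703, 11060.3 and 12326 (7.11 ± 0.11), and its HEC normal mean was 13706. Slc39a4, a zinc importer, rose from 223, 221 and 235 to 5986, 6167 and 6682 (4.79 ± 0.09), Hgsnat, a lysosomal acetyltransferase, from 3258, 3726 and 3336 to 30998, 30920.5 and 29205 (3.14 ± 0.06) and the laminin receptor Itga7 from 272, 334 and 324 to 7775, 7334 and 7643 (4.62 ± 0.09). Exons of Itga7 overlap another gene, and the strand setting of the counting is not given in the sources used here. The higher genes with the largest fold changes were other genes, and that ranking favours genes at 0 in BEC normal. Marco and Cd5l, which macrophages express, were at 0 in all BEC normal libraries and at 24806, 21653 and 14056 and 16076, 13899 and 9308 in BEC tumour, at least 1751-fold and 1137-fold higher, with HEC normal means of 2.31 and 3.98. Mmp12, macrophage elastase, was at 0 in BEC normal and at 4965, 4171 and 2681 in BEC tumour.

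Among the lower genes outside the lists, the membrane protease Mmp15 fell from 8245, 9395 and 9047 to 78.8, 85.4 and 95 (-6.68 ± 0.14). Cd93, an endothelial lectin-like receptor of sprouting vessels, fell from 22442, 20534 and 21129.5 to 2529.5, 2316 and 2092 (-3.21 ± 0.07), and Nptx1, a secreted pentraxin, from 30278, 29904 and 29689 to 5398, 5573 and 5043 (-2.49 ± 0.05). Col13a1, a membrane-bound collagen, was at 4079, 4156 and 3990.2 in BEC normal and at 0 in all BEC tumour libraries, at least 354-fold lower. Ifi202b is an interferon-inducible gene whose presence differs between mouse strains. It was at 1256, 1045 and 991 in BEC normal and at 0 in BEC tumour, at least 95.3-fold lower. Its HEC normal mean was 14.9. The methods name the same mouse strain for all hosts, and whether the groups shared a strain was not tested. As with the Y-linked genes, a difference in the source of the cells cannot be told apart from the difference in tissue. Eif2s3y and Ddx3y, the Y-linked genes given above, were among the 8 largest falls.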

How the data were processed

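RNA was sequenced from sorted endothelial cells of mice and from cultured EO771 cells. Endothelial reads were aligned by the authors to GRCm38 with STAR and summed per gene with featureCounts, and the deposited values, whole numbers in steps of about 3.84 units, were taken to be estimated counts per gene. The EO771 table was deposited by the authors as raw counts under gene symbols. Whether counting used strand, and whether duplicate reads were removed, is not given in the sources used here. Library kits are named differently in the labels and the methods.

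All 12 endothelial libraries entered a single DESeq2 1.42.0 fit (R 4.3.3) with group as the only term, for genes with a mean value of at least 10, with two-sided Wald tests and Benjamini-Hochberg adjustment. Genes were called at an adjusted p under 0.05 and an absolute log2 fold change over 1. An adjusted p was missing for 65 genes. Symbols and coordinates came from GENCODE vM21, which lacked 260 of 55401 identifiers. CPM were computed from the deposited totals. Floors cover counting error alone, because PCR copies could not be told from separate molecules.

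Genes were named by a rule: in each list the first 3 members and up to 4 called members with the largest fold change, and outside the lists, in each direction, the 8 largest by Wald statistic and the 8 largest by fold change among genes with a mean of at least 100. Fewer are named in the text, and exceptions are stated there. Single values of 2 genes of the cholesterol list are not reported here. The members, the lists and the rule were chosen with earlier results of these data known. Alternatives were edgeR 4.0.16 with TMM, 3 other scalings, other filters, a fit on the 6 BEC libraries, a replicate block and leaving out each BEC library. Same-numbered libraries of the groups had correlated deviations of 0.195, -0.0498 and 0.0634, so the numbers were not taken as pairs.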

Additional observations from a re-analysis of the deposited data

How the results depend on the processing

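Relative to 2300 genes higher and 2004 lower, the counts stayed within 1.5 times under edgeR, the TMM and total-value scalings, the filters on low values, the fit on the 6 BEC libraries and division by the step. Scaling to the pan-endothelial list gave 5800 higher and 1074 lower, testing against a 2-fold change gave 1093 and 985, and the adjusted p alone gave 4908 and 5033. Leaving out each BEC library in turn gave 2047 to 2446 higher and 1818 to 1962 lower. With the replicate block on the 6 BEC libraries, 2270 were higher and 2027 lower. Same-numbered libraries did not deviate together in each pair. With 3 libraries a group, these correlations cannot show whether they share a mouse or batch.

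The median ratio of BEC tumour to EO771 CPM was 0.252%, and it was 0.119% and 0.857% at EO771 levels of at least 20 and 100 CPM and 0.0594% with up to 10 units allowed in BEC normal, each of these using another set of genes.

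Of 135 named genes, 17 changed sign in some setting and 24 lost their call in some setting. Under the pan-endothelial scaling, which shifts all genes up, log2 fold changes became positive for Pecam1 (0.21), Cdh5 (0.65), Apln (0.19), Fabp4 (0.50), Efnb2 (0.42), Selp (0.21), Sele (0.38), Klf2 (0.33), Klf4 (0.48), Nos3 (0.49), Ccl2 (0.24), Ifit3 (0.059), B2m (0.16), H2-D1 (0.018), Cdk1 (0.49) and Hspa5 (0.62), none of which was called in the report. Under that scaling 13 called genes lost their call and 5 gained one. Krt18 ran from -0.13 without BEC tumour replicate 3 to 2.74 without replicate 1. Calls that were lost when a BEC library was left out were those of Rgs5 (without any but BEC tumour replicate 2), Mgp (without any but BEC tumour replicate 1), Krt18 (also lost without BEC normal replicate 1), Krt14 (9.79 without BEC tumour replicate 3, adjusted p 0.0588), Sox7 (0.99 without BEC normal replicate 2), Msmo1 (0.98 without BEC tumour replicate 1) and Pdgfrb (-0.99 without BEC tumour replicate 1). The cause was not tested for any of these. Fold changes of genes within 3 steps of 0 in a group are limited by depth.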
